A study of Mus musculus with 6 samples.

Results

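The integrated stress response and the unfolded protein response were examined through 44 named genes, listed by their known place in these pathways and found on the arrays through the RefSeq accession of each probe. All 44 had at least 1 probe, 53 of 55681 probes in all, among 20667 genes that could be named. The 44 were chosen with earlier results of these data known. They were split into an ATF4 branch of 26 genes and an endoplasmic reticulum branch of 18 genes. Every one of the 44 was well above background on all 6 arrays, so no gene entered through 1 group alone.

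The cells were J1 mouse embryonic stem cells, an established line of strain 129S4/SvJae and so a single genetic background. Both groups grew without feeder cells on gelatin, in serum replacement medium with 1000 U/ml of the cytokine LIF, non-essential amino acids, glutamine and β-mercaptoethanol, a reducing agent. For 24 h, 3 samples received SB431542 at 3 µM, which blocks the kinases of the activin, Nodal and TGF-beta receptors ALK4, ALK5 and ALK7, and 3 received its solvent DMSO. Whether the replicates grew as separate cultures is not stated in the labels, and the p-values therefore reflect the spread among these samples, which may be technical. The comparison asks how the receptor inhibitor altered transcripts in cells held under self-renewal conditions.

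In the integrated stress response, kinases such as PERK (gene Eif2ak3) and GCN2 (Eif2ak4) phosphorylate the initiation factor eIF2, which lowers general protein synthesis while the mRNA of the transcription factor ATF4 is translated better. ATF4, with C/EBP partners, then switches on genes for amino acid synthesis, one-carbon metabolism, tRNA charging and stress control. PERK also senses unfolded protein in the endoplasmic reticulum, where the sensors IRE1 (gene Ern1) and ATF6 raise chaperones and degradation factors through XBP1 and cleaved ATF6. Embryonic stem cells divide fast and keep protein synthesis tightly adjusted, and both pathways respond to amino acid supply, redox state and secretory load.

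Promoter sequences are shown first because several of the genes that fell, though not all, hold the same motif. RefSeq promoter windows, 250 bases before to 50 after the start in build GRCm38.p6, were present for 37 of the 44 genes (41 windows). The remaining 7 are Aldh1l2, Ppp1r15b, Nars, Wars, Atf6, Manf and Hyou1. Both strands were searched for the C/EBP-ATF response element TGATGNAA, which ATF4 with a C/EBP partner binds, allowing overlaps with other motifs. It was found in 8 genes (19.5% of the windows, against 3.97% of all 32851 windows). Of these, 5 belong to the 9 genes with a window that fell, 3 to the 25 that did not pass the test and 0 to the 3 that rose. Atf4, Atf5, Shmt2 and Mthfd2 fell without a match in their windows. A match describes letters and is not evidence of binding. The 44 genes were listed by their known place in these pathways, so a share above that of all windows may come from the listing. The stretches below read 5′ to 3′ on the gene's strand, with the match in capitals, which is the reverse complement except in Asns. Listed first are the 5 that fell, followed by Asns and Gars, which did not pass.
Atf3: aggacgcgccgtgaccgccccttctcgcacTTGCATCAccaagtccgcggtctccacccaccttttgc
Chac1: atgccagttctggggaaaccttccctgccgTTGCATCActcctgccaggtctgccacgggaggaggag
Nupr1: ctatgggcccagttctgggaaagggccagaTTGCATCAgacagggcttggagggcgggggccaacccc
Vldlr: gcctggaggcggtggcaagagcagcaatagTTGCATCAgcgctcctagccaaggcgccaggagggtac
Herpud1: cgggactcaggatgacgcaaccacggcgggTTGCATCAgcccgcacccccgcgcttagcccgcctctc
Asns: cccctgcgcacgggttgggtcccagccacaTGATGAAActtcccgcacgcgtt
Gars: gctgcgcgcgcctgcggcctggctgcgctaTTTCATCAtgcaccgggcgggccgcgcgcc

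These stretches lie at chr1:191183406-191183473 for Atf3 (minus strand), chr2:119351019-119351086 for Chac1 (plus), chr7:126625543-126625610 for Nupr1 (minus) and chr19:27216790-27216857 for Vldlr (plus). Those of Herpud1, Asns and Gars are chr8:94386287-94386354 (plus), chr6:7693210-7693262 (minus) and chr6:55037941-55038000 (plus). These 5 fallen genes carry the same letters, TGATGCAA read on the other strand, between 103 and 200 bases before the start. That form stood in 0.895% of all windows and in none of the 25 genes that did not pass (0), nor in the 3 that rose (0). It was singled out after these matches were seen. Trib3, the remaining gene that did not pass, has its TGATGNAA match after the start of the gene.

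The endoplasmic reticulum stress element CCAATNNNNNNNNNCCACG, bound by ATF6 with the factor NF-Y, stood in 6 genes (14.6% of the members' windows against 0.119% of all), each of them in the endoplasmic reticulum branch. They are Calr, Creld2, Dnajc3, Hsp90b1, Hspa5 and Pdia6, and this share too may come from how the genes were listed. Dnajc3 rose, while the other five did not pass the test. Its stretch (chr14:118937797-118937875, plus strand) and that of Hspa5 (chr2:34771995-34772073, plus strand) are shown with the element in capitals. The shorter core ACGTG, common to XBP1 and ATF6 sites, was in 13 genes (31.7% of the members' windows against 19.6% of all), 10 of which did not pass.
Dnajc3: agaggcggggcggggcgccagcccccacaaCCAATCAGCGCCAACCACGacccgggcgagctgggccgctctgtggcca
Hspa5: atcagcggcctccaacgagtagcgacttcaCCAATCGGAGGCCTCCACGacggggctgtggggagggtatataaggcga

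In the ATF4 branch 10 of 26 genes fell with SB431542, 0 rose and 16 did not pass the test. The falls were led by Atf3, Chac1, Aldh1l2 and Vldlr, whose levels were 0.250 to 0.479 of those in DMSO. In the endoplasmic reticulum branch 3 of 18 rose, 1 fell and 14 did not pass, and the largest of these changes was a 1.47-fold fall of Herpud1. Values are from limma's test at a Benjamini-Hochberg adjusted p under 0.05 over 25898 features. Across all features 12.6% were called, 7.39% lower and 5.19% higher. At an unadjusted p under 0.05, 14 ATF4 genes were lower and 0 higher, against 3 lower and 3 higher in the other branch. Over all features 27.7% had such a p, 14.0% lower and 13.6% higher. In bulk RNA, fewer cells that express a gene and less RNA per cell cannot be told apart. Translation of Atf4 mRNA and splicing of Xbp1 mRNA were not measured.

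**Figure D1:**
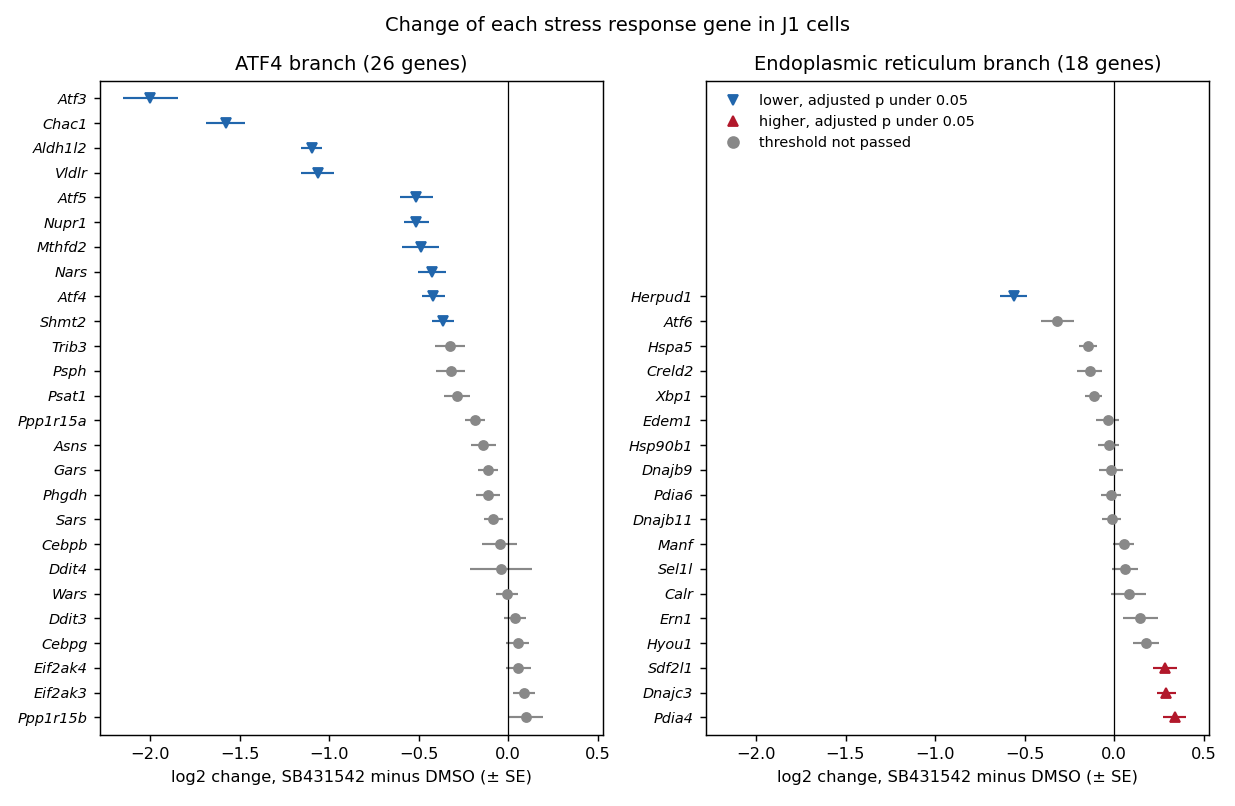
Log2 change (SB431542 minus DMSO) of each gene with its standard error, 3 arrays per group, in the ATF4 branch (left) and the endoplasmic reticulum branch (right). Blue triangles passed the test as lower, red triangles as higher and grey circles did not pass; the left panel reaches -2.00 for Atf3, while the right panel runs from -0.56 to 0.34.

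The medians of the branches are given as descriptions, without a test of either list. The ATF4 branch had a median log2 change of -0.23 and 21 of its 26 genes lay below 0. The endoplasmic reticulum branch had a median of -0.02, with 10 genes below 0 and 8 above, and all features had a median of 0.02. Array by array, the ATF4 median relative to the DMSO mean was -0.27, -0.15 and -0.27 on SB431542 replicates 1, 2 and 3 and between -0.02 and 0.01 on the DMSO arrays. That of the endoplasmic reticulum branch stayed between -0.03 and 0.02 on all 6 arrays. On SB431542 replicate 1, 21 ATF4 genes lay below every DMSO array, and on replicates 2 and 3 the counts were 16 and 21. The groups did not overlap for 16 of the 26 ATF4 genes, all lower, and for 9 of the 18 others, 5 lower and 4 higher. Over all features the groups did not overlap in 36.0%, with 17.3% lower and 18.6% higher.

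**Figure D2:**
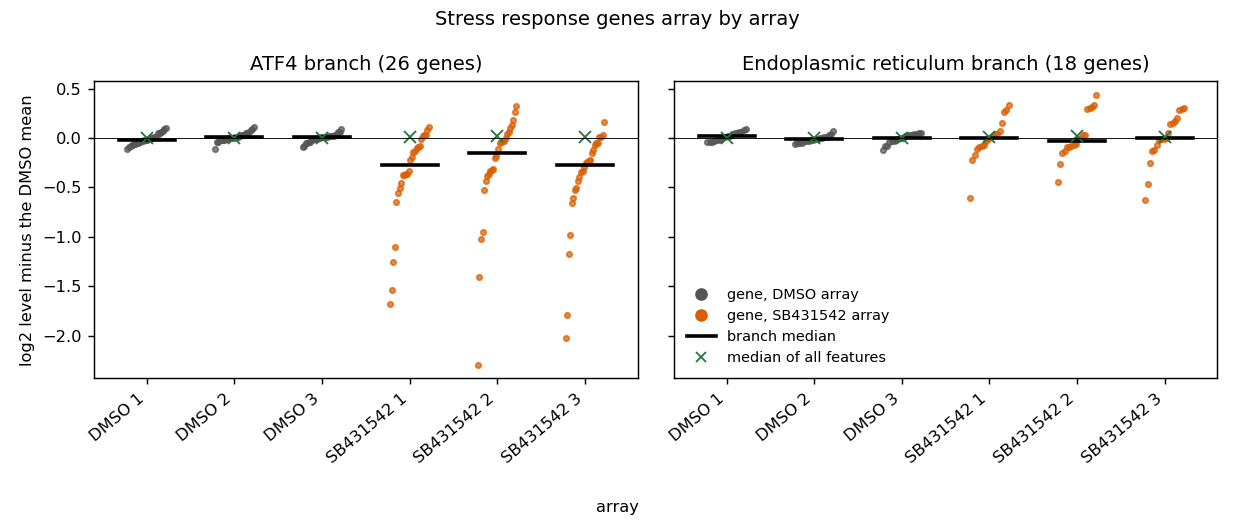
Log2 level of every gene minus its DMSO mean on each of the 6 arrays, sorted within an array, by branch. Black bars are branch medians and green crosses the median of all 25898 features; in the ATF4 branch the bars of the 3 SB431542 arrays lie at -0.15 to -0.27, while in the endoplasmic reticulum branch they stay within 0.03 of 0.

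The sensors and kinases at the head of both pathways did not pass the test (0 of 4, with 1 at an unadjusted p under 0.05). Levels here and below are log2 of the processed signal relative to each array's 75th percentile, so a level of 1 is 2-fold above it, and levels are compared only within a gene. Eif2ak3 stood at -0.04, -0.04 and -0.07 with DMSO and at 0.03, 0.13 and -0.04 with SB431542, which overlap. Eif2ak4 was at 1.88, 2.01 and 1.98 against 2.07, 2.06 and 1.90, also overlapping. The log2 changes were 0.09 ± 0.06 (SE, 3 arrays per group) for Eif2ak3 and 0.06 ± 0.07 for Eif2ak4, with 95% intervals of -0.06 to 0.24 and -0.12 to 0.23. Ern1, the gene of IRE1, measured -0.94, -1.05 and -1.11 with DMSO and -0.88, -0.72 and -1.05 with SB431542. Its change of 0.15 ± 0.10 did not pass. Atf6 was lower on every SB431542 array, at -0.98, -1.01 and -1.22 against -0.70, -0.69 and -0.88, yet its change of -0.32 ± 0.09 had an adjusted p of 0.0836.

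Among the 8 transcription factor genes, 4 fell (Atf3, Atf4, Atf5 and Nupr1) and 0 rose, with 4 lower and 0 higher at an unadjusted p under 0.05. Over all features 7.39% fell and 5.19% rose. Atf3, a repressor and feedback factor of the stress response, was at -1.65, -1.67 and -1.65 with DMSO and at -3.33, -3.95 and -3.67 with SB431542. The DMSO arrays were within 0.01 (SD) of each other, while the SB431542 arrays varied more (SD 0.31), and the groups were far apart. The log2 change was -2.00 ± 0.15 (adjusted p = 0.00129), a level 0.250 of that in DMSO. With normexp background correction its change was -1.06 ± 0.07, smaller than that of Chac1 (-1.62 ± 0.10).

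Atf4, the hub of the branch, read 6.98, 6.97 and 7.04 with DMSO and 6.63, 6.63 and 6.47 with SB431542. All 3 treated arrays were lower, and the change was -0.42 ± 0.06 (adjusted p = 0.0120), or 0.748 of the DMSO level with a 95% interval of 0.670 to 0.834. The second Atf4 probe fell as well, by 0.47 on the log2 scale (adjusted p = 0.0287 over single probes). Atf5, a relative of Atf4 under the same translational control, went from 3.22, 3.18 and 3.07 to 2.80, 2.64 and 2.50, a change of -0.51 ± 0.09 (adjusted p = 0.0202). Nupr1, a small stress-induced nuclear protein, went from 2.95, 2.97 and 2.97 to 2.41, 2.58 and 2.36, a change of -0.51 ± 0.07 (adjusted p = 0.00891). For both genes the groups did not overlap.

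Ddit3, which encodes the death-linked factor CHOP and is a classical ATF4 target, did not follow them. It measured -0.77, -0.74 and -0.73 with DMSO and -0.71, -0.62 and -0.79 with SB431542, which overlap. Its ratio of SB431542 to DMSO was 1.03, with a 95% interval of 0.923 to 1.14, so a fall of the size seen for Atf4 lies outside that interval. The C/EBP genes Cebpb (-0.05 ± 0.10) and Cebpg (0.05 ± 0.06), whose products pair with ATF4, also overlapped between groups. Xbp1, the factor downstream of IRE1, was at 4.89, 4.84 and 4.89 against 4.78, 4.74 and 4.75. These groups did not overlap, but the change of -0.11 ± 0.05 did not pass (adjusted p = 0.192).

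Of the 4 stress effectors, 2 fell, where 7.39% of all features did. Chac1 encodes an enzyme that breaks down glutathione and is among the most ATF4-dependent transcripts. It measured 3.72, 3.63 and 3.60 with DMSO and 2.11, 2.25 and 1.86 with SB431542, a change of -1.58 ± 0.11 (adjusted p = 0.000957) or a 2.99-fold fall. Vldlr, the very low density lipoprotein receptor gene, went from 0.67, 0.74 and 0.73 to -0.54, -0.24 and -0.26, a change of -1.06 ± 0.09 (adjusted p = 0.00189). Its second, dimmer probe was well above background on 3 DMSO arrays and on 0 SB431542 arrays, and was at least 1.58-fold lower (adjusted p = 0.00202 over single probes). That bound sets the DMSO mean against the lowest signal well above background on each treated array, or the probe's own signal where higher.

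Trib3, a pseudokinase that feeds back on ATF4, lay at 4.09, 3.96 and 3.90 with DMSO and at 3.76, 3.66 and 3.55 with SB431542. The groups did not overlap and the change was -0.32 ± 0.08, but the adjusted p was 0.0561. Ddit4, an inhibitor of mTORC1 signalling that also answers to glucocorticoids and low oxygen, varied most. Its 3 SB431542 arrays read 5.23, 5.92 and 5.53, on both sides of the DMSO arrays at 5.54, 5.68 and 5.59. The genes of the phosphatase subunits that reverse eIF2 phosphorylation did not pass. Ppp1r15a, the inducible subunit, was at 2.95, 2.93 and 2.95 against 2.76, 2.83 and 2.69, a change of -0.18 ± 0.06 (adjusted p = 0.0950), and the constitutive Ppp1r15b changed by 0.10 ± 0.09.

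All 3 mitochondrial one-carbon enzyme genes fell, where 7.39% of all features did. Of these, Mthfd2 kept its call in 1 and Shmt2 in 3 of the 6 fits that left out an array. Aldh1l2, a formyltetrahydrofolate dehydrogenase of mitochondria, was at -2.58, -2.56 and -2.55 with DMSO and at -3.66, -3.58 and -3.73 with SB431542. Its change of -1.10 ± 0.06 had an adjusted p of 0.000463, and with normexp background correction the change was -0.58 ± 0.06. Mthfd2, a methylenetetrahydrofolate dehydrogenase, went from 1.89, 2.05 and 2.06 to 1.35, 1.69 and 1.50, a change of -0.49 ± 0.10 (adjusted p = 0.0320). Shmt2, the serine hydroxymethyltransferase that feeds the pathway, went from 3.96 on each DMSO array to 3.50, 3.63 and 3.67, a change of -0.36 ± 0.06 (adjusted p = 0.0162).

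Of the 4 amino acid synthesis genes, 0 passed the test, although each had a negative change and 2 had an unadjusted p under 0.05. Asns, asparagine synthetase and a standard readout of ATF4, was at 6.81, 6.88 and 6.79 with DMSO and 6.68, 6.79 and 6.59 with SB431542. The groups met at 6.79, the lowest DMSO and the highest SB431542 array, and the ratio was 0.907 with a 95% interval of 0.807 to 1.02. The serine synthesis genes Psph (-0.32 ± 0.08, adjusted p = 0.0530) and Psat1 (-0.29 ± 0.07, adjusted p = 0.0604) lay close to the threshold with groups that did not overlap, and Phgdh, the entry enzyme of the pathway, changed by -0.11 ± 0.07. The dimmer Psph probe passed over single probes, at -0.37 ± 0.05 (adjusted p = 0.0121). Among the tRNA synthetase genes, only the asparaginyl enzyme gene Nars fell (1 of 4). It went from 3.14, 2.97 and 3.15 to 2.58, 2.65 and 2.76, a change of -0.42 ± 0.08 (adjusted p = 0.0214). Sars, Wars and Gars changed by -0.08, -0.01 and -0.11.

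**Figure D3:**
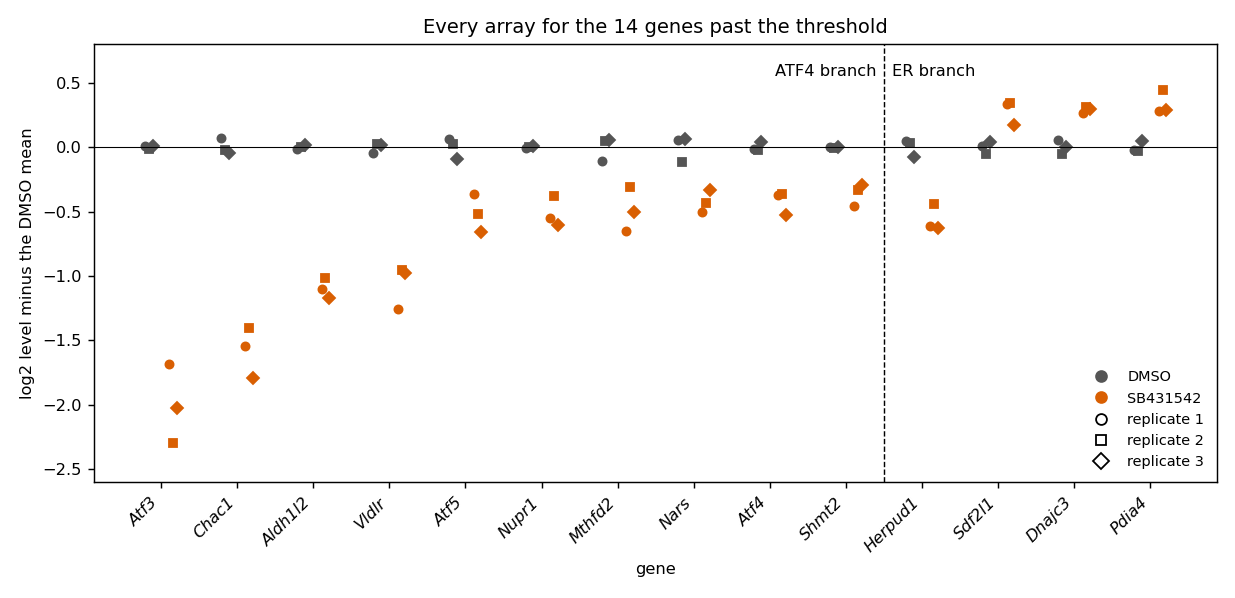
Log2 level minus the DMSO mean on every array for the 14 genes past the threshold, with DMSO in grey, SB431542 in orange and a symbol for each replicate number. All 3 SB431542 arrays lie outside the range of the DMSO arrays for each gene, with Atf3 farthest below 0 and Pdia4 highest by its mean change of 0.34.

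In the endoplasmic reticulum branch the gene that fell, Herpud1, acts in the degradation of misfolded proteins and is also known to be driven through PERK and ATF4. It was at 1.87, 1.86 and 1.74 with DMSO and 1.21, 1.38 and 1.19 with SB431542, a change of -0.56 ± 0.07 (adjusted p = 0.00742). The other degradation genes, Edem1 (-0.04 ± 0.06) and Sel1l (0.06 ± 0.07), overlapped between groups. The genes that rose are cofactors of folding. Pdia4, a disulfide isomerase, went from -0.37, -0.38 and -0.30 to -0.07, 0.09 and -0.06, a change of 0.34 ± 0.07 (adjusted p = 0.0255). Dnajc3, a co-chaperone that also inhibits eIF2 kinases, went from 1.27, 1.16 and 1.23 to 1.48, 1.53 and 1.52, a change of 0.29 ± 0.05 (adjusted p = 0.0214). Sdf2l1, a partner of the chaperone BiP, went from 1.58, 1.51 and 1.61 to 1.90, 1.91 and 1.74, a change of 0.28 ± 0.07 (adjusted p = 0.0468).

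Hspa5, the gene of BiP and the usual readout of the unfolded protein response, was at 6.03, 6.08 and 6.10 with DMSO and 5.90, 5.92 and 5.94 with SB431542. The groups did not overlap, but the change of -0.15 ± 0.05 did not pass (adjusted p = 0.116), and its ratio of 0.903 had a 95% interval of 0.830 to 0.982. The lumenal chaperone genes Hsp90b1 (-0.03 ± 0.06) and Calr (0.08 ± 0.10) and the J-domain genes Dnajb9 (-0.02 ± 0.07) and Dnajb11 (-0.01 ± 0.05) overlapped between groups. Hyou1, a nucleotide exchange factor for BiP, was higher on every SB431542 array without passing (0.18 ± 0.07, adjusted p = 0.187). The secreted factors Creld2 (-0.14 ± 0.07) and Manf (0.05 ± 0.06) did not pass. The probes of Pdia6, another disulfide isomerase, disagreed: the brighter changed by -0.02 ± 0.06 and the dimmer by -0.24 ± 0.05 (adjusted p = 0.0397 over single probes). Of the 9 genes with 2 probes, Pdia6 and Psph were the ones whose tested second probe gave another call.

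The calls of 6 genes held when any single array was left out, namely Atf3, Chac1, Aldh1l2, Vldlr, Nupr1 and Herpud1. Across those fits Atf3 ranged from -2.16 to -1.85, Chac1 from -1.67 to -1.47 and Herpud1 from -0.62 to -0.53. The other 8 lost their calls in some. The adjusted p of Atf4 was 0.0510, 0.0530 and 0.0594 without DMSO replicates 1, 2 and 3, that of Shmt2 0.0672, 0.0722 and 0.0717. For Atf5 it was 0.0799, 0.0835 and 0.0519 in the same order, and 0.0625 without SB431542 replicate 2. Nars had 0.0841 and 0.0871 when DMSO replicate 1 or 3 was dropped, and 0.0595 and 0.0659 when SB431542 replicate 1 or 2 was. Mthfd2 had 0.0653, 0.117 and 0.115 when a DMSO array was dropped (replicates 1 to 3 in turn), 0.0654 when SB431542 replicate 1 was and 0.0756 when SB431542 replicate 3 was. The 3 genes that rose passed in 1 or 2 of the 6 fits. Without DMSO replicates 1, 2 and 3 and SB431542 replicate 2, the adjusted p was 0.0557, 0.0926, 0.0874 and 0.0653 for Dnajc3, 0.135, 0.162, 0.117 and 0.120 for Sdf2l1, and 0.0965, 0.104, 0.0742 and 0.0549 for Pdia4. Without SB431542 replicate 1 it was 0.0523 for Dnajc3 and 0.113 for Sdf2l1. The number of ATF4 genes that fell was thus 5, 6 and 5 without DMSO replicates 1, 2 and 3, and the endoplasmic reticulum branch had 1 call without each of these arrays, 2 without SB431542 replicate 1 and 1 without SB431542 replicate 2. Each such fit has 5 arrays, and over all features the calls also fell, to between 1467 and 2911 from 3257.

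Other genes of these pathways, taken from lists of genes outside the 44, are described by counts and medians. Of 22 tested genes that are also linked to ATF4, 10 fell and 0 rose, with a median log2 change of -0.27. The share called was 45.5%, against 12.6% of all features and 15.5% of the named genes. This list, like the 44 genes, was chosen with earlier results of these data known, so its share is not independent support. At an unadjusted p under 0.05, 14 were lower and 0 higher. The 4 with the smallest adjusted p were Cth, the cystathionine gamma-lyase gene of cysteine synthesis (-1.06 ± 0.05, adjusted p = 0.000385), the stress cytokine gene Gdf15 (-1.45 ± 0.09, 0.000700), the secreted glycoprotein gene Stc2 (-1.15 ± 0.08, 0.000988) and the glycine transporter gene Slc6a9 (-0.83 ± 0.09, 0.00417). Cth read 3.72, 3.71 and 3.69 with DMSO and 2.68, 2.68 and 2.59 with SB431542. Slc3a2, the heavy chain of several amino acid transporters, fell by 0.47 on the log2 scale, while its partner Slc7a5 (0.01) and Slc38a2 (0.07) did not pass.

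Of 34 further genes of folding, degradation and the unfolded protein response, 1 rose and 1 fell, with a median of -0.01. Both encode related membrane-bound transcription factors, Creb3l2 (0.55 ± 0.09, adjusted p = 0.0132) and Creb3l1 (-0.68 ± 0.05, adjusted p = 0.00131). Of 12 genes of eIF2, its exchange factor and its regulators, 1 rose and 0 fell (3 higher and 0 lower at an unadjusted p under 0.05). That gene was Nck1, an adaptor that modulates eIF2 phosphorylation (0.29 ± 0.06, adjusted p = 0.0236). Cytosolic heat shock genes gave 1 fall in 11, Hspa4l (-0.45 ± 0.08), and NRF2 oxidative stress genes 1 rise in 9, the quinone reductase gene Nqo1 (0.43 ± 0.05). In the order given, the called shares of these lists were 5.88%, 8.33%, 9.09% and 11.1%. All were below the 12.6% called over all features, so these single calls do not set the lists apart.

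**Figure D4:**
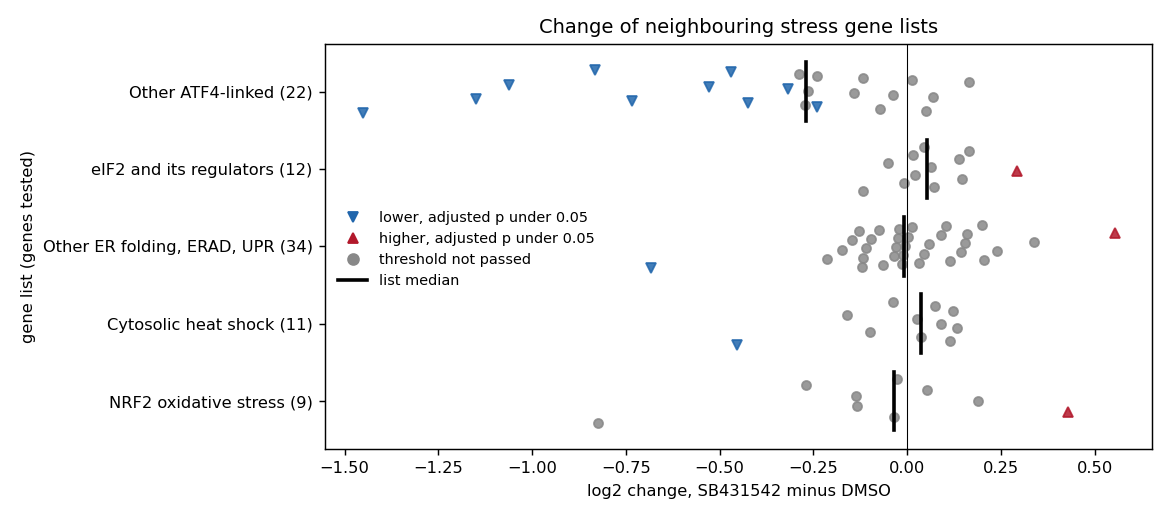
Log2 change of each tested gene in 5 neighbouring stress lists, spread vertically for legibility, with the list median as a black bar. The other ATF4-linked genes have a median of -0.27 and 10 of 22 past the threshold as lower, while the medians of the other lists lie between -0.04 and 0.05.

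Known targets of the inhibited receptors fell with SB431542 (5 of 5 listed), among them Smad7 (-4.59 ± 0.05) and Skil (-1.34 ± 0.07). Array brightness was similar, with 75th percentiles of 515 to 643, and the number of arrays, 3 per group, limits the precision. All 9 embryonic stem cell markers were well above background on the 6 arrays. Their summed signal, in multiples of that percentile, was 629 to 652 with DMSO and 465 to 517 with SB431542. The brightest marker, Dppa5a, weighed most in this sum, with mean log2 levels of 8.58 with DMSO and 8.09 with SB431542. Tdgf1, Dppa5a and Utf1 fell, while the other 6, Pou5f1, Sox2 and Nanog among them, did not pass. Log2 changes of those 6 ran from -0.29 (Pou5f1) to 0.12 (Zfp42), with Sox2 at 0.03 and Nanog at -0.02. For 12 fibroblast markers the sums were 3.59 to 3.80 and 2.83 to 3.08, with Lum and Postn not well above background on any array. Fibroblast markers gave 5 falls and 0 rises among the 10 tested, with a median log2 change of -0.34. Their called share was 50%, against 38.5% in the ATF4 branch and 45.5% among the other ATF4-linked genes. Falls without rises were thus not confined to the ATF4 lists. The 10 primitive endoderm markers gave 148 to 156 and 166 to 173, and the 7 neuroectoderm markers 8.53 to 8.65 and 7.46 to 8.30. Among the primitive endoderm markers 1 rose and 1 fell, with a median log2 change of 0.02. Neuroectoderm markers gave 3 falls and 0 rises, with a median of 0.08. The 9 trophoblast markers gave 15.7 to 16.2 and 30.2 to 30.3, with Elf5 and Hand1 not well above background on any array. Tfap2c (1.22 ± 0.05) and Gata3 rose, Krt8 fell (-0.49 ± 0.06), and the median change of the 7 tested was -0.02. The part of these shifts in the stress gene results was not tested. SB431542 replicate 3 was hybridised on another slide than the other arrays, in another scan. Without it 9 ATF4 genes fell, 3 endoplasmic reticulum genes rose and 1 fell.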

How the data were processed

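Total RNA of 6 samples was hybridised to 1-colour Agilent arrays (Cy3), and groups and replicate numbers came from the sample titles. Per the file headers, the deposited intensity values were background-subtracted and detrended within each array by Agilent Feature Extraction (version 10.7 per the submitters' processing notes), and flags per spot are a score of 0 or 1. The authors deposited a further table on a log2 scale, with no normalization stated in those notes, the labels or the file. Its columns share a median of 5.18 and also the other quartiles, 1.99 and 8.90 to the digits given. They correlate with their own array's log2 signal at 0.99988 or above, and the table served as an alternative.

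Outlier spots were dropped (81 probes lost), spots of a probe averaged and each array's 75th percentile subtracted on the log2 scale. No spot was saturated (0 on every array). The 36183 probes marked well above background on 3 or more of 6 arrays were kept, named by accession through RefSeq (GRCm38.p6), and the brightest probe stood for a gene. The array grid uses mm9, so coordinates are printed only for the RefSeq promoter windows. Groups were compared with limma 3.58.1 in R 4.3.3 (lmFit, eBayes, two-sided, Benjamini-Hochberg over all 25898 features), and the files were read with Python 3.11.15. "Rose" and "fell" mean an adjusted p under 0.05. The steps were tested on simulated data. Gene lists are described by counts and medians and were not tested. The members and lists were chosen with earlier results of these data known. Every member is accounted for, with values per array for those past the threshold and for 11 fixed genes, and other lists are shown by up to 4 genes with the smallest adjusted p, while genes beyond that (Slc3a2, Slc7a5, Slc38a2 and those of the motif shares) were chosen after their values were seen.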

Additional observations from a re-analysis of the deposited data

How the results depend on the processing

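Under 18 other settings, Atf3, Chac1, Aldh1l2 and Vldlr kept their calls in all, and Nupr1 and Herpud1 in all but the test against 1.2-fold. With normexp background correction the change was -1.06 in place of -2.00 for Atf3 and -0.58 in place of -1.10 for Aldh1l2, and the cause was not tested. The median of the ATF4 branch ran from -0.27 to -0.20 over these settings. Calls over all features were 3257, and 2097 with no filter on dim probes, 1567 with the replicate block, 1222 at an adjusted p under 0.01, 813 with treat against 1.2-fold and 1467 to 2911 when leaving out an array. ATF4 genes that changed numbered 10, then 5 at an adjusted p under 0.01, 4 with treat and 5 to 9 when leaving out an array, all lower, and 14 with an intensity trend. With the replicate block Atf4, Shmt2 and Nars lost their calls, and with no filter on dim probes Mthfd2 did. In the endoplasmic reticulum branch 4 changed, then 2 with no filter, 1 with the replicate block, 1 at an adjusted p under 0.01, 0 with treat (1 at an unadjusted p under 0.05) and 1 to 4 with 1 array dropped. With an intensity trend it was 6, 3 higher and 3 lower, Atf6 and Hspa5 being added as lower. That branch's median was -0.02, and 0.0026 when each array was centred on its median and -0.022 to 0.019 when leaving out an array, so it has no settled sign. A stricter threshold on the same fit lowers the counts by construction. The causes of the other differences between settings were not tested. Samples with the same replicate number did not deviate together (correlations of -0.06 to 0.07). Deviations from means of 3 arrays cannot exclude a pairing, and the labels do not state one. The slide block equals the fit without SB431542 replicate 3. Normexp used the median spot signal with an offset of 50. With 3 arrays per group, changes near the threshold, such as Trib3, Psph and Psat1, cannot be settled.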

Other observations

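Outside the 44 genes and the other ATF4-linked list, promoters holding the motif form TGATGCAA could be set against the array values. Of 12442 tested genes with a RefSeq window, 8.15% fell and 6.56% rose. Among the 102 with TGATGCAA, 20 fell (19.6%) and 8 rose (7.84%). Leaving out both stress lists, 14 of the remaining 92 fell (15.2%) and 8 rose (8.70%), with a median log2 change of -0.02. For the wider form TGATGNAA outside these lists, 9.12% of 351 genes fell. The form was singled out after the members' promoters were seen, and these shares are descriptions without a test. Within the other ATF4-linked list 5 genes hold the form. Yars (-0.32) fell, and Aars (-0.24), Iars (-0.04), Tars (-0.14) and Jdp2 (0.16) did not pass. Among the genes of that list without the form in this window, Aldh18a1, Gdf15, Gpt2, Pck2, Slc3a2, Slc6a9 and Stc2 fell. Mars1, Sesn2, Slc38a2, Slc7a1 and Xpot, also without it, did not pass. In that list, falls were thus more common among genes without the form.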
